A study of Capsicum annuum with 6 samples.

Results

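The genes described here are the 115 genes that lie around the chromosome 4 candidate of the genome-wide association study (GWAS) for first branch angle (FBA) in pepper, Capsicum annuum. They were chosen by position, as every gene whose cv.59 identifier lies from Capann_59Chr04g008940 to Capann_59Chr04g010940, which spans about 100 identifiers on each side of the candidate Capann_59Chr04g009940. Identifiers of this annotation advance in steps of 10, so the range covers 201 possible identifiers, and the 115 genes are those with a row among the 24829 genes measured. Of the 115, 60 have a lower identifier than the candidate and 54 a higher one. RNA sequencing measured the tissue at which the main stem first forks, in 2 accessions at early flowering: compact B010, with a small FBA, and loose B003, with a large FBA. Each accession has 3 libraries, each made from the pooled tissue of several plants, and the identifier order stands in for position because coordinates of this genome were not used here. Each accession is a single genotype, so a difference between them cannot be tied to FBA rather than to any other way in which these accessions differ. In such bulk tissue, fewer cells of a type and less RNA per cell also cannot be told apart.

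A GWAS places a signal on a stretch of chromosome and not on a gene, because neighbouring genes are inherited together. The gene that acts on the trait has to be picked out from its neighbours by other evidence, and a difference in transcript level between accessions is one kind. The candidate is described by the study as serine/threonine-protein kinase-like. Kinases of this class pass a phosphate group from ATP to serine or threonine residues of other proteins, and in Arabidopsis the kinase PINOID phosphorylates the PIN carriers that export auxin from cells. Auxin moved across the stem in this way is known to take part in gravity responses and in the angle at which branches grow. The other members are known here by identifier only, since none of the 24829 identifiers matched a gene name, so no roles are given for them. The study lists other candidate genes at the same GWAS signal, and a transcription factor gene among them lies nearer to the signal than the kinase. These genes are given under identifiers of another annotation, so they were not located among the members. The study singled out the kinase candidate partly because of its difference in these same libraries. Its own test below is therefore not independent evidence, whereas the rule for the neighbours used position and no measured value, although it was set with earlier results of these data known.

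The only sequences at hand for this range are the primers with which the study amplified the candidate in qRT-PCR. They are shown because they define the transcript that the study followed up and reported by qRT-PCR as significantly higher in B003. Both have 20 bases, of which 11 are G or C in the forward and 13 in the reverse primer, and they read 5′ to 3′ as follows.
Forward primer: tcgacgggaacttcagtgct
Reverse primer: caaccaccgatggcggactg

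The libraries held between 29891192 and 47659515 counts on genes. Levels are given as CPM, counts per 1000000 counts in the library after TMM scaling. For a count of 0 a limit of 3 counts was set, which corresponds to between 0.0632 and 0.109 CPM. This limit is a convention, and a bound that rests on it is approximate. Levels of different genes are compared only as FPKM, which also divides by exon length. Differences are log2 fold changes of B010 over B003, and negative ones mark genes with more transcript in B003. A gene was called when edgeR's quasi-likelihood test over all 24738 genes that passed its expression filter gave an adjusted p of at most 0.05 and the log2 fold change was at least 1 in size. All 115 members passed the filter. Identifiers of the range without a row could not be assessed, so every rank below is among the 115 listed genes only. Whether the tissue carried its defining markers was not checked, because the identifiers are used without gene names.

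The candidate was a weakly expressed gene with a clear difference between the accessions, but it was not the member that differed most. It was counted 48, 35 and 75 times in B010 replicates 1, 2 and 3 and 197, 151 and 152 times in B003. On the CPM scale these were 1.01, 1.27 and 2.21 in B010 against 5.01, 4.88 and 4.95 in B003. The lowest B003 library was thus well above the highest B010 library, and the B003 libraries lay closer together than those of B010. The mean level was 3.30-fold higher in B003, and the fitted log2 fold change was -1.73 (SE 0.33; adjusted p = 0.0111 by edgeR). By the size of the log2 fold change the candidate ranked 20th of the 115, and by p it ranked 17th. Across all genes tested, 17.6% had a larger log2 fold change in size, close to the 16.5% of members that did.

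In level the candidate belonged to the lower end of the range. Its mean over all libraries was 1.83 FPKM, and 104 members, or 90.4%, had a higher mean. Over all genes tested, 86.3% did. The members ran from 0.536 FPKM in Capann_59Chr04g010900 to 438 FPKM in Capann_59Chr04g010450, with a median of 11.9 FPKM against 9.25 FPKM over all genes tested. The order near the candidate is not resolved: Capann_59Chr04g009000 just above it, at 1.85 FPKM, and Capann_59Chr04g010140 just below it, at 1.83 FPKM, differ from it by less than the SD between replicates. Within B010 alone it stood at 0.872 ± 0.457 FPKM (SD, n = 3) and ranked 109th. Within B003 it stood at 2.79 ± 0.206 FPKM (SD, n = 3) and ranked 94th. Its spread between replicates, 0.40 on the log2 scale when averaged over both accessions, was above the median of 0.27 for the members and far below the largest, 1.67.

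**Figure D1:**
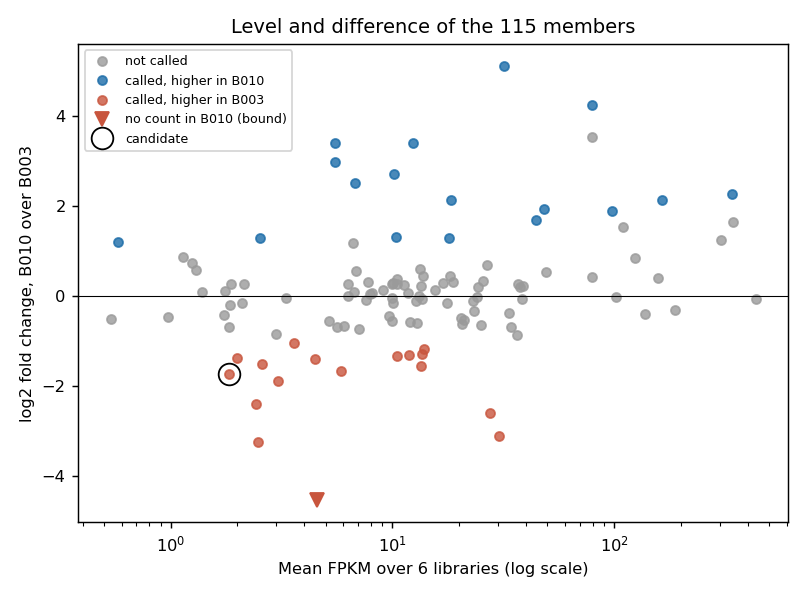
Each point is one of the 115 members, with its mean FPKM over 6 libraries on a log axis and its log2 fold change of B010 over B003. The candidate (circled) sits at 1.83 FPKM and -1.73, at the left of the plot and inside the cloud of genes called higher in B003, and Capann_59Chr04g009950 is drawn at its bound, 4.54 below 0, because B010 had no count.

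The candidate was also not the member that differed most among those with a level like its own. Within a factor of 2 of its mean FPKM there were 21 other members. Of these, 7 were called, and 3 had a larger log2 fold change in size. Over all genes tested, whatever their level, 25.3% were called and 17.6% had a larger log2 fold change in size. Their log2 fold changes ran from -3.25 in Capann_59Chr04g010160 to 1.30 in Capann_59Chr04g010770. The call of Capann_59Chr04g010770 was kept in 0 of the 6 fits that left out 1 library. This is a description of the members and no test, since genes are not replicates.

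Of the 115 members, 34 were called, or 29.6%, where 25.3% of all genes tested were. The calls were split evenly: 17 members, or 14.8%, were higher in B010, where 12.5% of all genes were, and 17, or 14.8%, were higher in B003, where 12.8% of all genes were. The other 1542 tested genes of chromosome 4 had 383 calls, or 24.8%. The median size of the log2 fold change was 0.55 for the members and 0.57 for all genes tested, and it did not change when Capann_59Chr04g009950 was taken at its bound. The share of calls in the range is therefore near the background, and nothing is read from it about the members. For comparison, the range of the same width around the chromosome 7 candidate of the same GWAS had 38 calls among 87 tested genes, or 43.7%, and its difference from the chromosome 4 range was not tested. In 65 members, or 56.5%, all libraries of one accession lay above all libraries of the other, and 54.4% of all genes tested showed this. Of the 81 members that were not called, 12 passed the limit on p with a log2 fold change below 1 in size, and 5 had a larger change but missed the limit on p. The number of members called fell to 15 without B010 replicate 1, to 22 without B010 replicate 2, to 18 without B003 replicate 2 and to 16 without B003 replicate 3. Over all genes, the same fits called 14.6%, 18.4%, 17.3% and 16.6%, and 14 of the 34 members were called in every fit that left out 1 library, the candidate among them.

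**Figure D2:**
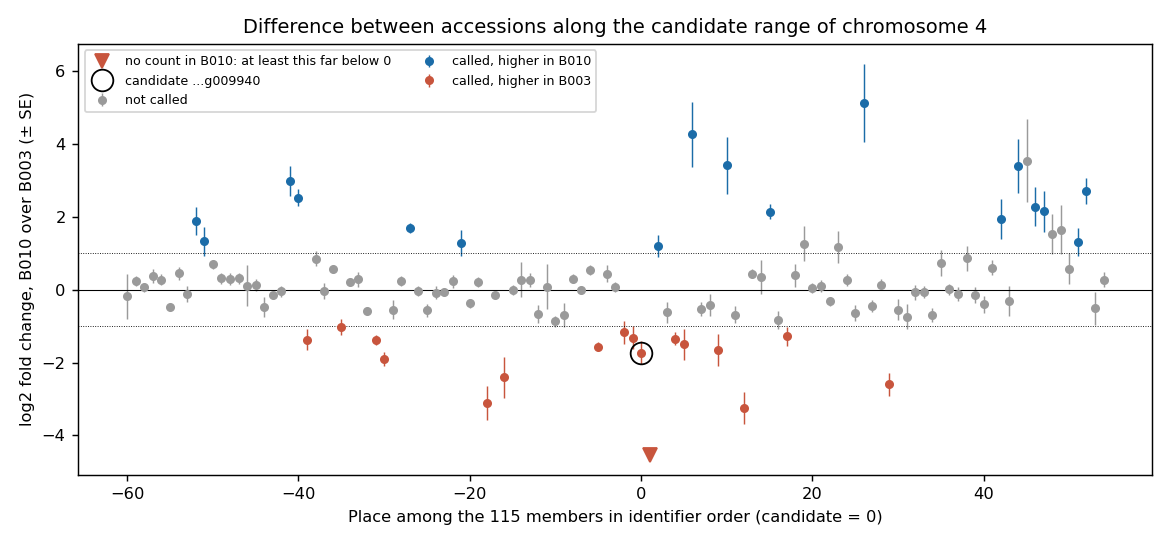
The members are in identifier order with the candidate at 0, and the vertical axis gives the log2 fold change of B010 over B003 with its standard error. Dotted lines mark 1 and -1, colours mark the 34 calls, and the triangle is Capann_59Chr04g009950 at its bound. Calls in both directions occur on both sides of the candidate, with a group of calls higher in B003 at its place and only calls higher in B010 at the right end.

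Of the 5 members on each side of the candidate, 7 of 10 were called, and 6 of these were higher in B003. Over all genes tested, 25.3% were called and 12.8% were called higher in B003, and with 10 genes this is a description without a test. The run of 4 from Capann_59Chr04g009920 to Capann_59Chr04g009950, which includes the candidate, was called higher in B003 without a break and was the longest run of same-direction calls among the members. All other runs had 2 members. The run holds the candidate, which was chosen partly on these values, so its length is a description without a test.

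The member directly after the candidate, Capann_59Chr04g009950, had 0 counts in each of the 3 B010 libraries and 117, 73 and 70 counts in B003 replicates 1, 2 and 3. It was the only member detected in one accession alone, here with at least 10 counts in every library of B003 and at most 3 in any library of B010. Set against the limit of 3 counts in the B010 library where these weigh most, 0.109 CPM, its mean of 2.54 CPM in B003 was 23.3-fold higher (edgeR adjusted p = 0.00202). This fold is an approximate lower bound. Reads of both accessions were aligned to the genome of another line, cv.59, so a silent gene, a missing gene and a gene whose sequence in B010 does not align cannot be told apart. The call was made in every fit that left out 1 library.

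The pair directly before the candidate, Capann_59Chr04g009920 and Capann_59Chr04g009930, moved alike from library to library. Capann_59Chr04g009920 had 11.5, 16.3 and 15.5 CPM in B010 and 20.6, 31.9 and 45.3 CPM in B003. Capann_59Chr04g009930 had 10.8, 14.7 and 9.26 CPM in B010 and 18.7, 28.3 and 39.5 CPM in B003. In both genes the accessions did not overlap, but B003 replicate 1 lay near the highest B010 library. Their log2 fold changes were -1.17 (SE 0.31; adjusted p = 0.0295 by edgeR) and -1.32 (SE 0.32; adjusted p = 0.0225 by edgeR). With 1 library left out, the former was called in 1 and the latter in 3 of 6 fits. Their adjusted p without B010 replicate 1 was 0.107 and 0.0878, without B003 replicate 2 it was 0.0793 and 0.0655, and without B003 replicate 3 it was 0.0751 and 0.0630. The former was also not called without B010 replicate 2, with an edgeR adjusted p of 0.0662, or without B010 replicate 3, with 0.0503. The count of the former divided by that of the latter was between 1.07 and 1.15 in 5 libraries and 1.68 in B010 replicate 3. Whether these neighbours are copies that share reads was not tested.

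On the far side of Capann_59Chr04g009950 the directions were mixed. Capann_59Chr04g009970 was the member of the 10 called higher in B010, at 1.496, 1.41 and 1.80 CPM in B010 and 0.483, 0.744 and 0.813 CPM in B003. With 0.576 FPKM over all libraries it was one of the 2 weakest members, its log2 fold change was 1.21 (SE 0.30; adjusted p = 0.0248 by edgeR), and 5 of the 6 fits that left out 1 library lost the call, with adjusted p from 0.0543 to 0.0792. Without B003 replicate 1 it was called. Capann_59Chr04g009990 was steadier, at 7.84, 7.72 and 9.52 CPM in B010 and 17.3, 22.7 and 23.6 CPM in B003, and its log2 fold change of -1.34 (SE 0.18; adjusted p = 0.00379 by edgeR) was called in all 6 such fits. Capann_59Chr04g010000 had 1.64, 1.81 and 2.21 CPM in B010 and 2.52, 6.92 and 6.64 CPM in B003. Here B003 replicate 1 stood much nearer to B010 than to its own group, and the log2 fold change of -1.501 (SE 0.42; adjusted p = 0.0346 by edgeR) was called only without that library, with adjusted p from 0.0526 to 0.120 in the other 5 fits. The 3 neighbours that were not called had log2 fold changes of 0.43 in Capann_59Chr04g009900, 0.07 in Capann_59Chr04g009910 and -0.62 in Capann_59Chr04g009980, and in each of them the libraries of the accessions overlapped.

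**Figure D3:**
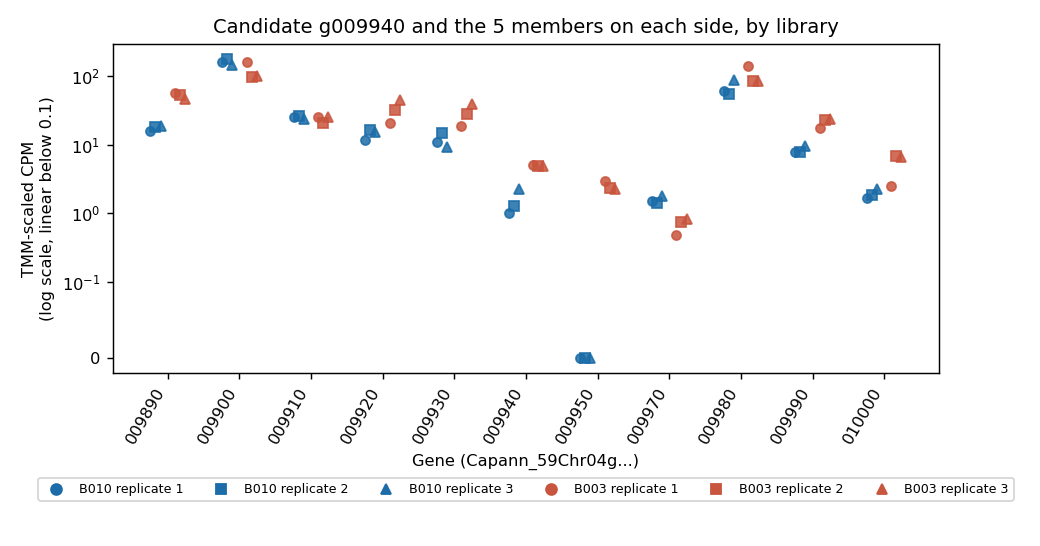
Every library is shown for the candidate g009940 and the 5 members on each side, as TMM-scaled CPM on an axis that is logarithmic above 0.1 and linear below it. B010 is blue and B003 is red, and the marker shape gives the replicate. The B010 libraries of g009950 are at 0, and the candidate's B003 libraries fall together near 5 CPM.

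The members whose profile over the 6 libraries was most like that of the candidate were not all close to it in order. Likeness was measured as the Euclidean distance between log2 CPM values centred per gene. Capann_59Chr04g009890, 5 places before the candidate, was nearest at 0.745, followed by Capann_59Chr04g009480 at 0.757, Capann_59Chr04g009380 at 0.857 and Capann_59Chr04g009990 at 0.886. Capann_59Chr04g009890 had 16.1, 18.2 and 18.8 CPM in B010 and 56.0, 53.8 and 47.1 CPM in B003. Its libraries lay close together within each accession, and it had the smallest p of the members called higher in B003, at a log2 fold change of -1.56 (SE 0.13; adjusted p = 0.00114 by edgeR). Capann_59Chr04g009480 had 1.54, 2.103 and 1.86 CPM in B010 and 7.22, 6.53 and 6.70 CPM in B003, with a slightly larger log2 fold change than the candidate, -1.90 (SE 0.19; adjusted p = 0.00194 by edgeR). Both genes were called in every fit that left out 1 library. Capann_59Chr04g009380, at 3.50, 2.25 and 4.63 CPM in B010 and 8.29, 10.1 and 8.59 CPM in B003, had a log2 fold change of -1.37 (SE 0.29; adjusted p = 0.0148 by edgeR). It lost its call without B010 replicate 1, with an edgeR adjusted p of 0.0633, and without B003 replicate 2, with 0.0547.

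Among the members called higher in B003, 6 had a larger log2 fold change than the candidate in size. Besides Capann_59Chr04g009950 and Capann_59Chr04g009480 these were Capann_59Chr04g010160, Capann_59Chr04g009680, Capann_59Chr04g010420 and Capann_59Chr04g009700. Capann_59Chr04g010160, at 2.47 FPKM over all libraries, had 0.442, 0.653 and 1.12 CPM in B010 and 9.36, 6.30 and 5.27 CPM in B003 (log2 fold change -3.25 with SE 0.43; adjusted p = 0.00378 by edgeR). Capann_59Chr04g009680 was the most abundant member called higher in B003, at 30.2 FPKM over all libraries. It had 6.99, 5.58 and 16.3 CPM in B010 and 106, 73.8 and 70.4 CPM in B003 (log2 fold change -3.12 with SE 0.46; adjusted p = 0.00533 by edgeR). Capann_59Chr04g010420 had 12.4, 11.2 and 16.3 CPM in B010 and 48.8, 92.3 and 100.02 CPM in B003 (log2 fold change -2.60 with SE 0.32; adjusted p = 0.00310 by edgeR). In these 3 genes the lowest B003 library was well above the highest B010 library, and no omission of a library ended the call. Capann_59Chr04g009700 was less firm, since it had 1.96, 7.63 and 8.20 CPM in B003 and 1.12, 1.02 and 1.21 CPM in B010, which leaves B003 replicate 1 near B010. Its log2 fold change of -2.40 (SE 0.56; adjusted p = 0.0200 by edgeR) was called without B003 replicate 1 and without B010 replicate 3, and the other 4 fits gave adjusted p of 0.0648 to 0.0774.

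Among called members, the largest differences in the other direction came with a wide spread inside B010. Capann_59Chr04g010390 had 32.1, 81.8 and 4.28 CPM in B010 replicates 1, 2 and 3 and 1.25, 1.16 and 0.944 CPM in B003. Capann_59Chr04g010010 had 299, 421 and 48.8 CPM in B010 and 6.41, 20.2 and 13.4 CPM in B003. Capann_59Chr04g010130 had 12.8, 22.7 and 2.51 CPM in B010 and 1.25, 1.00 and 1.30 CPM in B003. In each of these genes B010 replicate 3 was the lowest library of its accession by a wide margin and yet above every library of B003. Their log2 fold changes were 5.13 (SE 1.08; adjusted p = 0.0150 by edgeR), 4.26 (SE 0.89; adjusted p = 0.0149 by edgeR) and 3.42 (SE 0.78; adjusted p = 0.0195 by edgeR). Without B010 replicate 3 all 3 were called, with edgeR adjusted p of 0.00221, 0.00342 and 0.00218. None of the 3 was called without B003 replicate 3, where their adjusted p was 0.0619, 0.0600 and 0.0679. Capann_59Chr04g010390 was also lost without B003 replicate 2 (edgeR adjusted p = 0.0602) and Capann_59Chr04g010010 without B010 replicate 1 (edgeR adjusted p = 0.0511). Capann_59Chr04g010130 was lost in both of these fits, with adjusted p of 0.0741 and 0.0606. Capann_59Chr04g010660 had a larger log2 fold change than Capann_59Chr04g010130, 3.54, but missed the limit on p (edgeR adjusted p = 0.0523). Its B010 replicate 3, at 25.7 CPM, lay below its B003 replicate 2, at 33.1 CPM.

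This drop in B010 replicate 3 recurred in other members, but not evenly along the range. In 14 members, or 12.2%, that library had less than 0.5 times the CPM of each of the other B010 libraries. Over all genes tested 8.02% did, and in the range around the chromosome 7 candidate 14.9% did. In 13 of the 14 members replicate 2 was the highest. Over 5 groups of 23 members, from the lowest to the highest identifiers, the 14 numbered 3, 0, 1, 4 and 6. These 14 were picked after their values were seen, so their number is a description. They included 9 of the 17 members called higher in B010, or 52.9%, where 27.6% of all genes called higher in B010 had such a drop. Each of the 9 was called without B010 replicate 3, the library that the rule picks as low. None of them was called in every fit that left out 1 library, whereas 5 of the other 8 were. The rule that picked the 9 itself selects a wide spread within B010, so this contrast is a description without a test. The 5 were Capann_59Chr04g009360, Capann_59Chr04g009370, Capann_59Chr04g009510, Capann_59Chr04g010230 and Capann_59Chr04g010780, named here after their values were seen. Capann_59Chr04g009360 had 3.56, 4.71 and 4.22 CPM in B010 and 0.839, 0.356 and 0.358 CPM in B003, a log2 fold change of 2.98 (SE 0.41; adjusted p = 0.00414 by edgeR). Capann_59Chr04g009370, the next listed gene, had 9.42, 9.50 and 9.58 CPM in B010 and 2.14, 1.45 and 1.33 CPM in B003, so in both genes of this neighbouring pair the lowest B010 library lay well above the highest of B003. Capann_59Chr04g010780 had 38.6, 38.3 and 20.9 CPM in B010 and 4.96, 6.60 and 3.38 CPM in B003, a log2 fold change of 2.71 (SE 0.35; adjusted p = 0.00365 by edgeR).

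The members were also counted in 5 groups of 23 in identifier order, a description without a test, beside 12.5% of all genes called higher in B010 and 12.8% called higher in B003. The calls higher in B010 numbered 4, 2, 2, 3 and 6 from the lowest to the highest identifiers, and those higher in B003 numbered 1, 5, 7, 4 and 0. Thus none of the 23 from Capann_59Chr04g010450 to Capann_59Chr04g010930 was called higher in B003, while 6 were called higher in B010. Of these, only Capann_59Chr04g010780 was called in all 6 fits that left out 1 library. Capann_59Chr04g010650 and Capann_59Chr04g010670 were called in 3, Capann_59Chr04g010630 and Capann_59Chr04g010680 in 1 and Capann_59Chr04g010770 in 0. In Capann_59Chr04g010630 the libraries of the accessions overlapped. The candidate is in the third group, from Capann_59Chr04g009720 to Capann_59Chr04g010100. Capann_59Chr04g010670 had 521, 959 and 259 CPM in B010 and 112, 168 and 80.1 CPM in B003, a log2 fold change of 2.27 (SE 0.54; adjusted p = 0.0213 by edgeR). It was not called without B010 replicate 1, B003 replicate 1 or B003 replicate 3, where the adjusted p was 0.0615, 0.0514 and 0.0740. The next listed gene, Capann_59Chr04g010680, followed it, with a count ratio between both genes of 1.80 to 2.25 in all 6 libraries. Whether this pair shares reads was not tested. Capann_59Chr04g010650 had 21.3, 49.1 and 6.78 CPM in B010 and 1.91, 3.30 and 2.08 CPM in B003, a log2 fold change of 3.40 (SE 0.74; adjusted p = 0.0169 by edgeR). Without B010 replicate 1, B003 replicate 2 or B003 replicate 3 its adjusted p was 0.0503, 0.0513 and 0.0664. Without B010 replicate 3, Capann_59Chr04g010670 and Capann_59Chr04g010650 were called, with edgeR adjusted p of 0.00859 and 0.00390.

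Of the 4 most abundant members, only Capann_59Chr04g010670 was called. Capann_59Chr04g010450, the most abundant at 438 FPKM, had 165, 154 and 181 CPM in B010 and 211, 133 and 181 CPM in B003, with no separation of the accessions (log2 fold change -0.07 with SE 0.20; adjusted p = 0.794 by edgeR). Capann_59Chr04g010720 had 630, 852 and 133 CPM in B010 and 124, 254 and 137 CPM in B003. Capann_59Chr04g010290 had 212, 330 and 80.3 CPM in B010 and 88.8, 88.7 and 83.1 CPM in B003. In both of these genes B010 replicate 3 fell among the B003 libraries or below them, and their log2 fold changes of 1.65 and 1.26 missed the limit on p (edgeR adjusted p = 0.102 and 0.0826). Without B010 replicate 3 both were called, with adjusted p of 0.0115 and 0.00549.

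**Figure D4:**
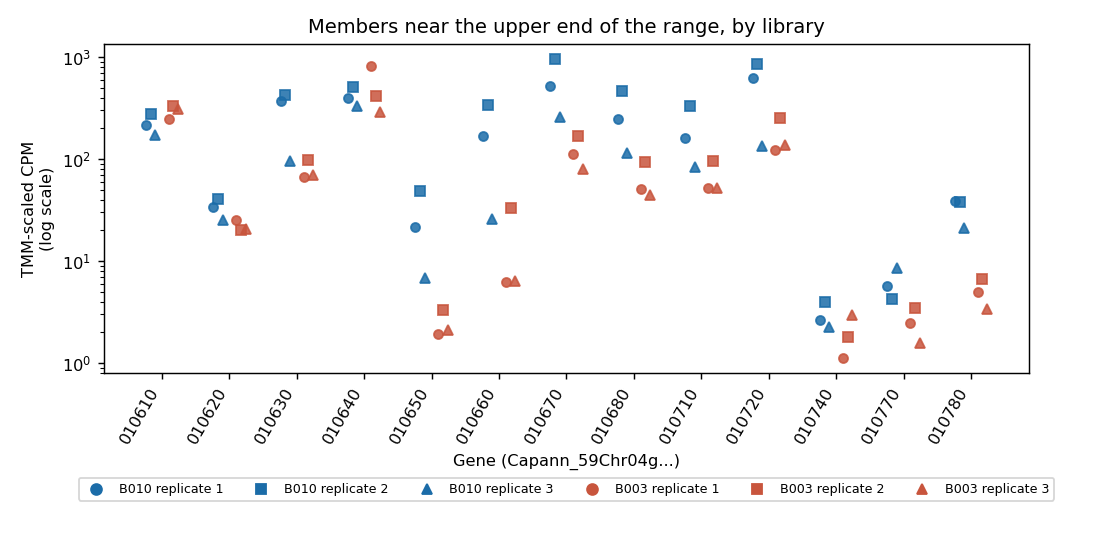
Every library is shown for the 13 listed members from g010610 to g010780, as TMM-scaled CPM on a log axis, with B010 in blue and B003 in red and the replicate given by the marker shape. In 6 of these members the triangle of B010 replicate 3 lies at less than 0.5 times both other B010 libraries, and in g010780 the lowest B010 library, at 20.9 CPM, lies above the highest of B003, at 6.60 CPM.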

How the data were processed

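The counts as deposited are whole numbers of reads per gene, which the authors obtained by filtering paired reads and aligning them to the cv.59 genome with HISAT2. StringTie is also named in the submitters' processing notes. The counting program, its use of strand and its treatment of reads that align to several places are not given in the sources used here, so near-identical or overlapping genes have uncertain counts. The FPKM values that the authors deposited scale each count by exon length and mapped reads. The authors' own columns of log2 fold change, p-value and q-value were not used, and 0 columns of single samples were left out. Library columns were assigned to accessions by the first line of the deposited table, and the last digit of a column's name was taken as the replicate number.

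Genes were kept by the expression filter of edgeR 4.0.16 in R 4.3.3, scaled by TMM and compared by its quasi-likelihood test with accession as the only term over all 6 libraries, with Benjamini-Hochberg adjustment over the 24738 genes tested. Standard errors (SE) were derived from the F statistic, as the size of the log2 fold change over its square root. The fit was also run on simulated counts, in which each gene varied independently and the changed genes changed more than the candidate. Deviations of a library that many genes share were not simulated. An exact permutation test of 3 libraries against 3 cannot go below p = 0.1, so single genes rest on this model. Pairs of libraries of one accession differed by at least 28.7 times the sampling variance (chi-square per degree of freedom), so each was counted once. That lowest value was for B003 replicates 2 and 3, and B003 replicate 1 differed from them by 209 and 238. In B010, replicates 1 and 2 differed by 44.4, and replicate 3 differed from them by 138 and 214.

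The members and the rule for named genes were chosen with earlier results of these data known. Named were the candidate, 5 listed genes on each side, per direction the 6 called members with the largest log2 fold change whose libraries do not overlap, the 4 of highest FPKM, members detected in 1 accession only, the 4 most like the candidate and the longest run of calls. The alternatives were DESeq2 1.42.0, other scaling factors, filters and fold-change limits, the replicate number as a block, limma 3.58.1 on log2(FPKM + 1) and log2(FPKM + 0.1), and omission of each library. The RefSeq gene table of another pepper assembly matched 0 of the 24829 identifiers, so no names or coordinates were taken from it. The qRT-PCR primers were read from the study's primer list, and qRT-PCR values were not analysed here. Intervals and limits from counts cover counting error only.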

Additional observations from a re-analysis of the deposited data

How the results depend on the processing

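The candidate kept its direction and its call under every alternative, with log2 fold changes from -2.13 to -1.04 and adjusted p from 1.44e-05 by DESeq2 to 0.0411 by edgeR without B010 replicate 1, except that its log2 fold change of -1.73 lay below the stricter limit of 2. With that limit 15 members were called, of which B010 had the higher level in 10 and B003 in 5. These were 13% of the members, where 13.1% of all genes tested were called. By DESeq2, 39 members were called, with 22 higher in B010 and 17 higher in B003. These were 33.9% of the members, where 29.3% of all genes were called. With 1 library left out the number of members called was between 15 and 37, with 5 to 21 higher in B010 and 9 to 18 higher in B003. The share called was 13% to 32.2% of the members and 14.6% to 28.1% of all genes in these fits. In them the candidate ranked between 18th and 24th of 115 by the size of its log2 fold change. By limma on log2(FPKM + 1), where the pseudocount shrinks the changes of weak genes, it ranked 32nd. None of the 34 called members changed sign under any alternative. Of the other named members, Capann_59Chr04g009910, which was not called, ran from -0.021 without B003 replicate 2 to 0.118 without B003 replicate 1, and Capann_59Chr04g010450, also not called, from -0.236 without B003 replicate 2 to 0.083 without B003 replicate 1, so both changed sign with 1 library left out. The deviations of same-numbered libraries from their accession means correlated with r = -0.003, 0.08 and 0.18 for numbers 1, 2 and 3 across genes. For differently numbered libraries r ran from -0.170 to 0.086. The r of number 3 was thus the highest of all pairs, and these values do not settle whether the libraries are paired. The main fit did not pair them. With the replicate number as a block, 29 members were called, of which B010 had the higher level in 15 and B003 in 14. These were 25.2% of the members, where 22.1% of all genes tested were called. In that fit the candidate had a log2 fold change of -1.80 (edgeR adjusted p = 0.0280). The candidate had at most 197 and Capann_59Chr04g009950 at most 117 counts in a library, which limits the precision of their levels.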
